A study of Mus musculus with 24 samples.

Results

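The genes described here are Foxp3 and 9 genes of the interleukin 2 (IL-2) receptor axis: Il2ra, Il2rb, Il2rg, Stat5a, Stat5b, Cish, Socs1, Socs2 and Socs3. They were chosen by name, and all 10 were found among the 56791 genes of the deposited count table. The study profiled regulatory T cells (Tregs, suppressive CD4 T cells) and B cells by bulk RNA sequencing in 24 libraries. The cells were sorted from melanomas grown from the pigmented mouse line B16-F0 and from the lymph nodes that drain them. The 8 groups of 3 libraries were KO and WT tumour Tregs, KO and WT lymph node Tregs, KO and WT tumour B cells, and KO and WT lymph node B cells. KO denotes Foxp3-Cre-YFP Appl2 f/f mice, in which Cre recombinase driven by Foxp3 is meant to remove loxP-flanked Appl2, the gene of an early endosome adaptor protein. WT denotes Foxp3-Cre-YFP mice, so KO and WT animals alike carried the Foxp3-driven Cre and the tumour. Since Foxp3 drives the recombinase, B cells of KO mice are not the cells in which deletion is aimed for. The labels used here give no age. Whether replicate libraries stem from different mice is not stated, so p-values measure only the spread between these libraries.

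Foxp3 is the transcription factor that sets the identity of Tregs, and mice or people without it develop fatal autoimmunity. Tregs make little IL-2 themselves and take it up through a receptor of an alpha chain (Il2ra, CD25), which raises affinity, and the signalling beta and gamma chains (Il2rb and Il2rg). The beta chain also serves IL-15, and the gamma chain serves IL-4, IL-7, IL-9, IL-15 and IL-21 as well. Bound receptor activates the kinases Jak1 and Jak3, which activate the transcription factors Stat5a and Stat5b. STAT5 supports transcription of Foxp3 and Il2ra and induces Cish and Socs2, while Cish and the Socs proteins restrain cytokine signalling in turn.

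A STAT5 dimer prefers the letters TTCNNNGAA, which read the same way on both strands. That motif was searched for in 300-base windows around annotated gene starts (250 bases before and 50 from the start onward, RefSeq, GRCm38.p6), which were at hand for 8 of the 10 genes and not for Il2rb and Socs2. It was found in 3 of the 11 windows of these genes, in Foxp3, Socs3 and Cish, and 8.30% of the 32851 mouse promoter windows hold it. The window of another Foxp3 start, further upstream, holds none. The Foxp3 word lies 139 bases before an internal start of the gene (chrX:7580294-7580402, plus strand). In Socs3 the word lies 154 bases before the start (chr11:117969462-117969570, minus strand). The Cish window holds 2 words, the first at the annotated start and the next 11 bases on (chr9:107296654-107296683, plus strand), and 0.457% of all windows hold at least 2. A match is a description of these letters, not a bound site, and binding was not measured. The stretches are printed 5′ to 3′ with the motif in capitals, because these are members of the axis whose transcript levels are described next.
Foxp3: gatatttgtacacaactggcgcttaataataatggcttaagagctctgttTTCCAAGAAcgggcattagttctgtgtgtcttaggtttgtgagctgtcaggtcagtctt
Socs3: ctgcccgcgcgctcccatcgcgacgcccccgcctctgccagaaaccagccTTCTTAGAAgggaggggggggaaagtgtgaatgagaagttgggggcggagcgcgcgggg
Cish: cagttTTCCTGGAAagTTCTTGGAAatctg

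Libraries held 6245822 to 16239055 counts. Levels are CPM (counts scaled to a common library total), adjusted over the 24 libraries by TMM, and a gene was called changed at an adjusted p under 0.05 in edgeR's quasi-likelihood test (Benjamini-Hochberg over all genes tested, two-sided). Log2 fold changes are given with their standard error. Appl2 averaged 24.3 ± 3.34 CPM in KO and 54.1 ± 4.36 CPM in WT tumour Tregs (SD, n = 3 each; log2 fold change -1.12 ± 0.10, adjusted p = 5.51e-12). Lymph node Tregs labelled KO averaged 26.1 ± 2.83 CPM of Appl2, against 22.3 ± 3.86 CPM for the WT label (0.23 ± 0.12, adjusted p = 0.159), so there the label was not borne out by the Appl2 level. In B cells Appl2 was lower in KO, at 15.8 ± 3.06 CPM in KO and 45.7 ± 7.01 CPM in WT tumour B cells (-1.53 ± 0.16, adjusted p = 5.83e-06), and at 11.2 ± 0.445 CPM in KO and 23.6 ± 2.56 CPM in WT lymph node B cells (-1.08 ± 0.13, adjusted p = 2.24e-07). Appl2 was thus lower in KO B cells, in which deletion is not aimed for. KO tumour Tregs stood near the level of WT lymph node Tregs (24.3 and 22.3 CPM). The Appl2 level of a group therefore does not by itself show whether the gene was deleted there. Reads over the whole gene do not test the deleted exons alone. Melanoma genes (10 genes, summed) ran from 46.3 to 57.2 CPM in KO and 2710 to 2920 CPM in WT tumour Tregs, and from 40.4 to 44.5 CPM in KO and 738 to 847 CPM in WT tumour B cells. In tumour B cells, replicate 1 of KO and replicate 2 of WT differed most from the others of their group.

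**Figure D1:**
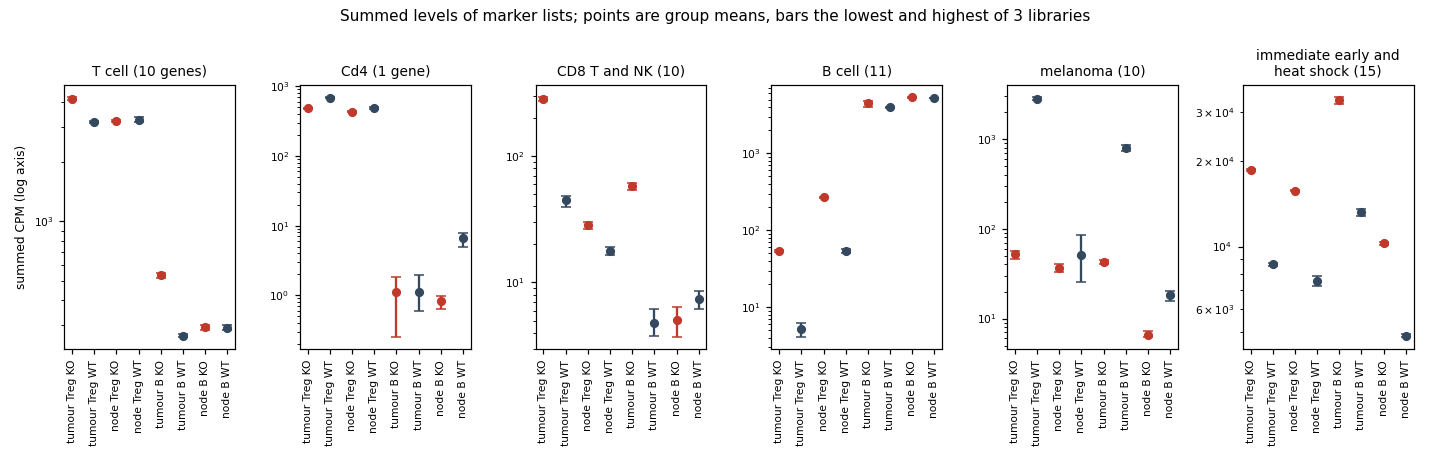
Summed CPM (log axis) of marker lists for T cells, Cd4 alone, CD8 T and NK cells, B cells, melanoma and immediate early or heat shock genes in the 8 groups; points are means and bars the lowest and highest of 3 libraries (KO red, WT grey). CD8 T and NK genes reach 284 CPM in KO tumour Tregs and 44.5 CPM in WT tumour Tregs, and melanoma genes stand at 52.5 and 2790 CPM in the same 2 groups.

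All 10 genes were higher in Tregs than in B cells in both WT tissues. In bulk RNA, fewer cells of a type and less RNA per cell cannot be told apart. In the WT lymph node, where 63.6% of all genes tested were called, Tregs held Foxp3 at 338, 361 and 348 CPM and B cells at 9.52, 12.3 and 10.2 CPM (log2 fold change 5.03 ± 0.08, adjusted p = 2.50e-28). Il2ra gave 446, 450 and 463 CPM in these Tregs, against 2.64, 4.80 and 2.10 CPM in B cells (7.14 ± 0.11, adjusted p = 1.41e-28). Groups were far apart for both genes, the defining pair of surface and nuclear Treg markers. Il2rg, which B cells use for IL-4 and IL-21, was nearly level, at 181, 170 and 178 CPM in Tregs and 148, 164 and 145 CPM in B cells (0.21 ± 0.06, adjusted p = 0.00200).

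In WT tumours, with 64.2% of genes called, the differences between Tregs and B cells were 5.47 ± 0.11 for Foxp3, 7.28 ± 0.13 for Il2ra, 6.89 ± 0.11 for Il2rb and 0.22 ± 0.06 for Il2rg on the log2 scale. Stat5a and Stat5b were higher in Tregs by 1.88 ± 0.15 and 1.25 ± 0.07, and Socs3 by 1.06 ± 0.08. Cish and Socs1 were barely read in WT tumour B cells, with 8, 0 and 16 reads and with 4, 0 and 0 reads, so the size of their difference is uncertain. Foxp3 itself held 50 to 149 reads per B cell library. Of the 4577 exon bases of Foxp3 (chrX:7439883-7461484, plus strand, GRCm39), 31.5% are shared with other genes: Flicr on the same strand (18.6%), and Ccdc22 (12.9%), Gm36995 (8.15%) and Ppp1r3f (5.81%) on the opposite strand. Whether reads were counted by strand is not given in the sources used here. Of these genes in WT lymph nodes, Flicr averaged 17.7 ± 1.35 CPM in Tregs and 0.288 ± 0.0547 CPM in B cells, and Ppp1r3f 19.0 ± 2.96 CPM in Tregs and 5.84 ± 0.502 CPM in B cells (SD, n = 3 each). Gm36995 averaged 26.7 ± 2.26 CPM in Tregs and 24.7 ± 2.29 CPM in B cells, and Ccdc22 16.0 ± 1.31 CPM in Tregs and 21.9 ± 1.68 CPM in B cells. Flicr and Ppp1r3f thus had lower means in B cells, as Foxp3 did, and the means of Gm36995 and Ccdc22 were closer or higher; their part in the B cell reads of Foxp3 was not tested.

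**Figure D2:**
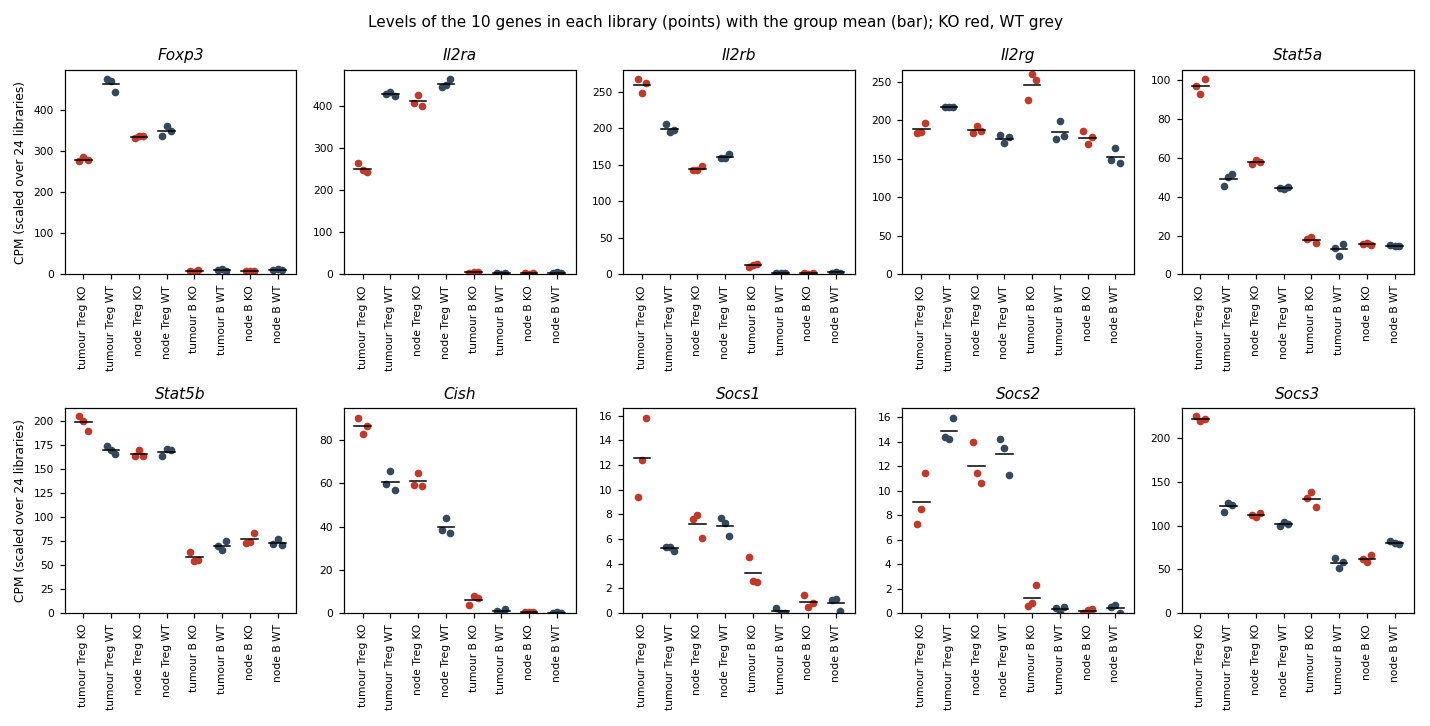
CPM of the 10 genes in each library (points, KO red, WT grey) with group means (bars), with tumour and lymph node Tregs to the left of tumour and lymph node B cells. Foxp3 is highest in WT tumour Tregs, at 463 CPM on average, and mean B cell levels reach those of some Treg groups for Il2rg, other than in WT lymph node B cells (152 CPM), and for Socs3 in KO tumour B cells (130 CPM).

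In tumour Tregs, Foxp3, Il2ra and Socs2 were lower in KO libraries, and Stat5a, Socs1, Socs3, Cish and Il2rb were higher. Il2rg was also called lower and Stat5b higher, although Il2rg turned to a log2 fold change of 0.29 when libraries were scaled by Cd4 and Stat5b to -0.05 when they were scaled by the CD3 genes (Cd3d, Cd3e, Cd3g and Cd247). All 10 genes were thus called, 6 higher and 4 lower, in a comparison where 54.5% of all 14442 genes tested were called. The median log2 fold change was 0.33 over the 10 and -0.02 over all genes. All 10 were still called when any 1 library was left out.

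Foxp3 stood at 275, 285 and 278 CPM in KO tumour Tregs, against 475, 470 and 443 CPM in WT tumour Tregs. Every KO library lay below every WT library, with a gap much wider than the spread within either group (log2 fold change -0.70 ± 0.05, adjusted p = 1.47e-15). Scaled by the CD3 genes, which shifts the median of all genes by -0.33, the value was -1.01, and scaled by Cd4, which shifts it by 0.44, it was -0.24 (adjusted p = 0.000113). Cd4 itself averaged 486 ± 9.11 CPM in KO and 683 ± 16.0 CPM in WT tumour Tregs. Foxp3 reads per Cd4 read were 0.575 ± 0.0102 in KO and 0.678 ± 0.0179 in WT (SD, n = 3 each), and the groups did not overlap. The genes that share exon bases with Foxp3 moved in the same direction: Ppp1r3f by -0.81 ± 0.15, Gm36995 by -0.50 ± 0.11 and Flicr, a long noncoding RNA of the Foxp3 locus, by -0.42 ± 0.15 (adjusted p = 0.0142), while Ccdc22 had -0.23 ± 0.14 (adjusted p = 0.163). Reads from Foxp3 and its overlapping neighbours cannot be told apart over the shared bases.

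The 3 receptor chains went different ways. Il2ra, the alpha chain, had 265, 247 and 242 CPM in KO tumour Tregs, against 428, 432 and 424 CPM in WT, and the KO libraries were all lower (-0.74 ± 0.05, adjusted p = 5.43e-16). Il2rb, the beta chain, had 267, 248 and 262 CPM in KO, against 206, 195 and 197 CPM in WT, and the KO libraries were all higher (0.41 ± 0.05, adjusted p = 1.22e-08). Scaled by the CD3 genes the Il2rb value was 0.10 and was not called (adjusted p = 0.180). Il2rg, the gamma chain, had 184, 185 and 196 CPM in KO and 217 CPM in each WT library (-0.17 ± 0.05, adjusted p = 0.00432; turned by Cd4 scaling, as given above). Per exon length, KO tumour Tregs held 44.0 ± 2.16 RPKM of Il2ra, 60.4 ± 2.34 RPKM of Il2rb and 78.8 ± 2.76 RPKM of Il2rg. In WT tumour Tregs these levels were 75.0 ± 0.681, 46.5 ± 1.38 and 90.8 ± 0.174 RPKM in the same order of genes. The ratio of Il2ra to Il2rb per length was 0.729 ± 0.0330 in KO and 1.61 ± 0.0510 in WT tumour Tregs, a within-library measure that no scaling alters.

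**Figure D3:**
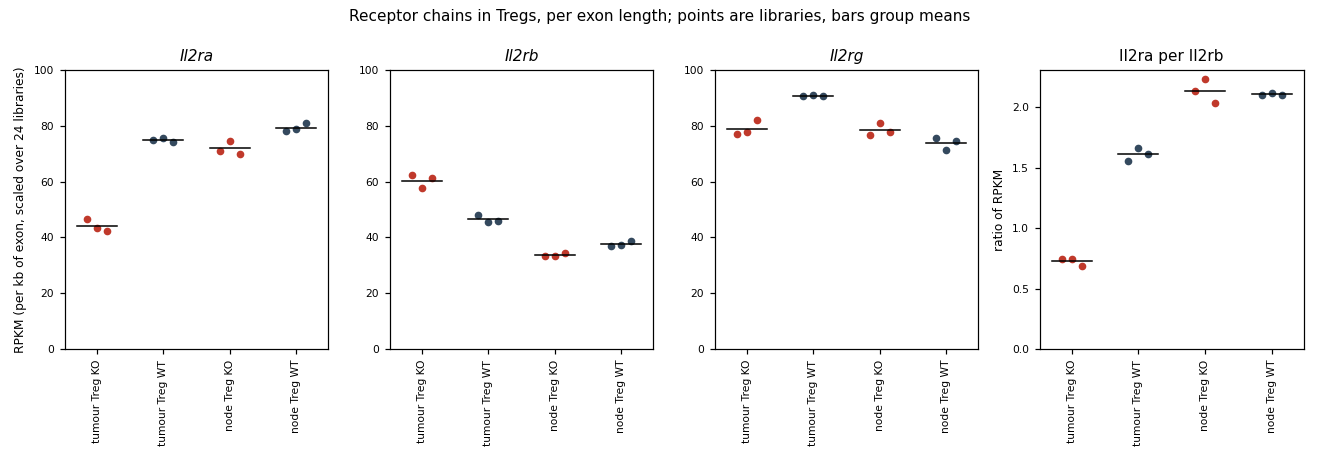
RPKM (CPM per kb of exon) of Il2ra, Il2rb and Il2rg, and the ratio of Il2ra to Il2rb, in KO and WT Tregs of tumour and lymph node; points are libraries and bars means. KO tumour Tregs have a ratio of 0.691 to 0.750, below the 1.56 to 1.66 of WT tumour Tregs and the 2.03 to 2.23 of lymph node KO Tregs.

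Among the transducers, Stat5a rose the most. It had 96.9, 93.0 and 101 CPM in KO tumour Tregs, against 45.7, 50.3 and 52.0 CPM in WT (1.01 ± 0.07, adjusted p = 1.52e-14), and no KO library came near a WT library. Stat5b, its more abundant partner, had 206, 201 and 190 CPM in KO, against 174, 170 and 166 CPM in WT (0.26 ± 0.05, adjusted p = 9.45e-05; turned by CD3 scaling, as given above). The per-length ratio of Stat5a to Stat5b was 0.380 ± 0.0298 in KO and 0.225 ± 0.0202 in WT tumour Tregs. The paralogs share few sequence stretches: 265 words of 100 bases, which are 3.44% of those of Stat5a and 4.79% of those of Stat5b. How reads that match both were counted is not given in the sources used here.

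The inhibitors split. Cish, a STAT5-induced inhibitor of the IL-2 receptor, had 90.2, 83.1 and 86.7 CPM in KO tumour Tregs, against 59.7, 65.8 and 57.0 CPM in WT, with all KO libraries higher (0.54 ± 0.07, adjusted p = 6.38e-08). Socs3, which acts on IL-6 family receptors and is chiefly induced by STAT3, had 225, 219 and 222 CPM in KO, against 116, 126 and 124 CPM in WT (0.90 ± 0.05, adjusted p = 7.43e-17). Socs1, an inhibitor of the Jak kinases, was low and spread widely in KO libraries, at 9.44, 12.4 and 15.8 CPM, against 5.33, 5.40 and 5.04 CPM in WT (1.28 ± 0.20, adjusted p = 1.17e-06). These 3 genes were higher in every KO library, and how many of all genes show such a gap was not counted. Socs2 went the other way, at 7.30, 8.49 and 11.4 CPM in KO, against 14.4, 14.2 and 15.9 CPM in WT (-0.68 ± 0.17, adjusted p = 0.000816), and was not called under Cd4 scaling (-0.23, adjusted p = 0.256). Cish and Socs2, which STAT5 is known to induce alike, thus differed in direction.

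Markers of other cells moved with these groups. All 10 CD8 T and NK genes were higher in KO tumour Tregs, with a summed level of 274 to 292 CPM in KO and 39.7 to 48.0 CPM in WT, and none was at 0. CD8 T and NK cells also express Il2rb, Il2rg and the STAT5 and Socs genes. Summed B cell markers (11 genes) ran from 52.8 to 56.1 CPM in KO and 4.09 to 6.19 CPM in WT, where Cr2 was at 0. Immediate early and heat shock genes (15 genes) ran from 18500 to 18800 CPM in KO and 8540 to 8740 CPM in WT. The part of these cells, of the melanoma RNA or of cell stress in the differences of the 10 genes was not tested.

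In lymph node Tregs, Foxp3 was not called, and fewer of the 10 genes were called than in tumour Tregs. Foxp3 had 332, 336 and 338 CPM in KO libraries, against 338, 361 and 348 CPM in WT, and the highest KO and the lowest WT library met at 338 CPM. Its log2 fold change was -0.06 ± 0.04 (95% interval -0.15 to 0.03, adjusted p = 0.342), which became 0.14 (adjusted p = 0.0402) when libraries were scaled by the CD3 genes, a scaling that shifts the median of all genes by 0.19. The call rule found 4 of the 10 genes, while 25.2% of all genes tested were called. Cish had 59.1, 65.0 and 58.7 CPM in KO, against 38.5, 44.0 and 37.3 CPM in WT (0.61 ± 0.08, adjusted p = 3.76e-07). Stat5a had 57.0, 58.8 and 57.8 CPM in KO, against 44.3, 43.8 and 44.8 CPM in WT (0.38 ± 0.07, adjusted p = 9.76e-05). Both rose without overlap between the groups, though how many of all genes did so was not counted. Both stayed called in every alternative run. Of the exon bases of Cish, 11.5% are shared with Gm17040 and Gm17041, and of those of Stat5a 1.01% with Stat3, all on the opposite strand. The part of these neighbours in the values was not tested.

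The receptor calls in lymph node Tregs were small and fragile. Il2ra had 406, 426 and 400 CPM in KO, against 446, 450 and 463 CPM in WT (-0.15 ± 0.04, adjusted p = 0.0132), and turned to 0.06 under CD3 scaling and 0.04 under Cd4 scaling. Il2rb had 143, 143 and 148 CPM in KO, against 159, 160 and 165 CPM in WT (-0.16 ± 0.05, adjusted p = 0.0152), and turned to 0.04 and 0.02 under those scalings. Neither was called without lymph node Treg KO replicate 1 (adjusted p = 0.0911 and 0.0890), Il2ra was not called without KO replicate 3 (0.0953), and Il2rb was not called without KO replicate 2 (0.0653). The ratio of Il2ra to Il2rb per length was 2.13 ± 0.0992 in KO and 2.11 ± 0.00715 in WT lymph node Tregs. Il2rg, Stat5b, Socs1, Socs2 and Socs3 had log2 fold changes between -0.11 and 0.13 and were not called, but under CD3 scaling Il2rg (0.29), Socs3 (0.34) and Stat5b (0.18, turned) were called higher, as they were under Cd4 scaling (0.27, 0.32 and 0.16), which shifts the median of all genes by 0.17. Here the CD8 T and NK sum was 26.6 to 29.8 CPM in KO and 16.5 to 19.0 CPM in WT, with Gzmk at 0 in each, and the B cell sum was 265 to 274 CPM in KO and 51.4 to 56.3 CPM in WT. Immediate early and heat shock genes reached 15700 to 15800 CPM in KO and 7280 to 7840 CPM in WT, and the part of any of these in the values was not tested.

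**Figure D4:**
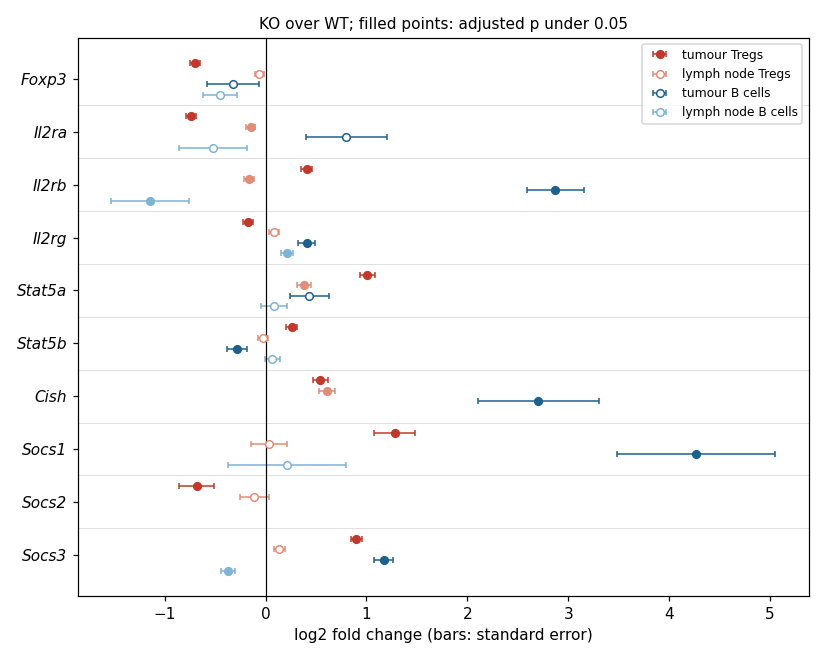
Log2 fold change of KO over WT (bars: standard error) for each gene in tumour Tregs, lymph node Tregs, tumour B cells and lymph node B cells; filled points passed an adjusted p of 0.05, and genes not tested have no point. Foxp3 and Il2ra lie at -0.70 and -0.74 in tumour Tregs and near 0 in lymph node Tregs, Cish is alike in both, and Il2rb reaches 2.87 in tumour B cells. Under CD3 or Cd4 scaling Il2rg and Stat5b in tumour Tregs and Foxp3, Il2ra, Il2rb and Stat5b in lymph node Tregs change sign.

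The difference between tissues was tested directly. The interaction of genotype with tissue in Tregs was called for 9 of the 10 genes, against 34.1% of all genes tested. A negative value means that KO relative to WT was lower in the tumour than in the lymph node. It was -0.64 ± 0.06 for Foxp3 (adjusted p = 1.42e-10), -0.60 ± 0.06 for Il2ra (7.98e-10) and 0.56 ± 0.07 for Il2rb (3.22e-08). For Stat5a it was 0.62 ± 0.10, for Socs1 1.24 ± 0.27 and for Socs3 0.75 ± 0.08, but under CD3 scaling, which shifts the median of all genes by -0.53, Il2rb and Stat5a had 0.06 and 0.11 and were not called. Il2rg (-0.27 ± 0.07) turned to 0.02 under Cd4 scaling, and Stat5b (0.28 ± 0.07) turned to -0.23 under CD3 scaling. Socs2 (-0.58 ± 0.22, adjusted p = 0.0396) was not called without tumour Treg KO replicate 1 or 2, WT replicate 1 or 3, lymph node Treg KO replicate 1 or WT replicate 2 or 3. Nor was Socs2 called without the filter on low counts (adjusted p = 0.053), with DESeq2 (0.0627), with all 24 libraries in the fit (0.266) or under Cd4 scaling (0.321). Cish alone was not called, at -0.07 ± 0.11 (adjusted p = 0.646), with a KO over WT difference of 0.54 in the tumour and 0.61 in the lymph node; under CD3 scaling it had -0.58 and was called, close to the shift of all genes.

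Set against the lymph node, tumour Tregs of the 2 genotypes differed in Foxp3 in opposite directions, except under Cd4 scaling, where the WT value turned. In KO Tregs, tumour libraries held 275, 285 and 278 CPM, below the lymph node libraries at 332, 336 and 338 CPM (-0.24 ± 0.04, adjusted p = 5.85e-06). In WT Tregs, tumour libraries held 475, 470 and 443 CPM, above the lymph node libraries at 338, 361 and 348 CPM (0.41 ± 0.05, adjusted p = 2.93e-08), but under Cd4 scaling, which shifts the median of all genes by -0.48, this WT value was -0.07 (adjusted p = 0.270). Cd4 averaged 683 ± 16.0 CPM in WT tumour and 490 ± 16.0 CPM in WT lymph node Tregs. From high to low, mean levels of Foxp3 ran in the order WT tumour, WT lymph node, KO lymph node and KO tumour Tregs, of which the 2 lymph node groups overlapped.

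In KO Tregs 9 of the 10 genes were called between tumour and lymph node, where 56.5% of all genes tested were called. Socs3 (1.0 ± 0.05), Il2rb (0.86 ± 0.05), Socs1 (0.81 ± 0.18), Stat5a (0.77 ± 0.06) and Cish (0.53 ± 0.07) were higher in the tumour. Il2ra (-0.69 ± 0.05) was lower there with Foxp3. Stat5b was called higher at 0.28 ± 0.05 but turned to -0.09 under CD3 scaling. Socs2 was called lower at -0.39 ± 0.17 (adjusted p = 0.0449), and the call was lost without tumour Treg KO replicate 1 or 2 or lymph node Treg KO replicate 1 or 2. It was also lost with DESeq2 (adjusted p = 0.0936) and with all 24 libraries in the fit (adjusted p = 0.23). Il2rg had 0.03 ± 0.05 (adjusted p = 0.690) and turned to -0.34 under CD3 and -0.17 under Cd4 scaling, which shift the median of all genes by -0.38 and -0.20. Cish was not called under CD3 scaling (0.16, adjusted p = 0.0633), nor Stat5b under Cd4 scaling (0.09). Markers of other cells moved here too: the CD8 T and NK sum was 274 to 292 CPM in KO tumour and 26.6 to 29.8 CPM in KO lymph node Tregs, with Gzmk at 0 in the lymph node. B cell genes summed to 52.8 to 56.1 CPM in KO tumour and 265 to 274 CPM in KO lymph node Tregs. Dendritic cell genes (7 genes) summed to 73.0 to 77.7 CPM in the tumour and 24.9 to 32.7 CPM in the lymph node, and plasma cell genes (6 genes) to 413 to 432 CPM in the tumour and 156 to 158 CPM in the lymph node; the part of these cells in the values was not tested.

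In WT Tregs 5 of the 10 genes were called, all higher in the tumour, and 41.3% of all genes tested were called. Cish (0.61 ± 0.09), Foxp3 (0.41 ± 0.05), Il2rb (0.31 ± 0.05), Il2rg (0.30 ± 0.05) and Socs3 (0.26 ± 0.06) made up the 5. Under Cd4 scaling Foxp3, Il2rb, Il2rg and Socs3 turned to -0.07, -0.17, -0.18 and -0.22, and Cish had 0.13 and was not called (adjusted p = 0.220). Il2ra was nearly level, at 428, 432 and 424 CPM in WT tumour Tregs and 446, 450 and 463 CPM in WT lymph node Tregs (-0.08 ± 0.05, adjusted p = 0.179), and had -0.56 under Cd4 scaling, near the shift of all genes. Under that scaling 7 genes were called and all 7 were lower in the tumour. All 10 melanoma genes were higher in the tumour in this comparison, with sums of 2710 to 2920 CPM in WT tumour and 25.2 to 86.2 CPM in WT lymph node Tregs, and their part in the values was not tested. Both tissue comparisons share their libraries with the genotype comparisons above, so their values are not independent of those.

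**Figure D5:**
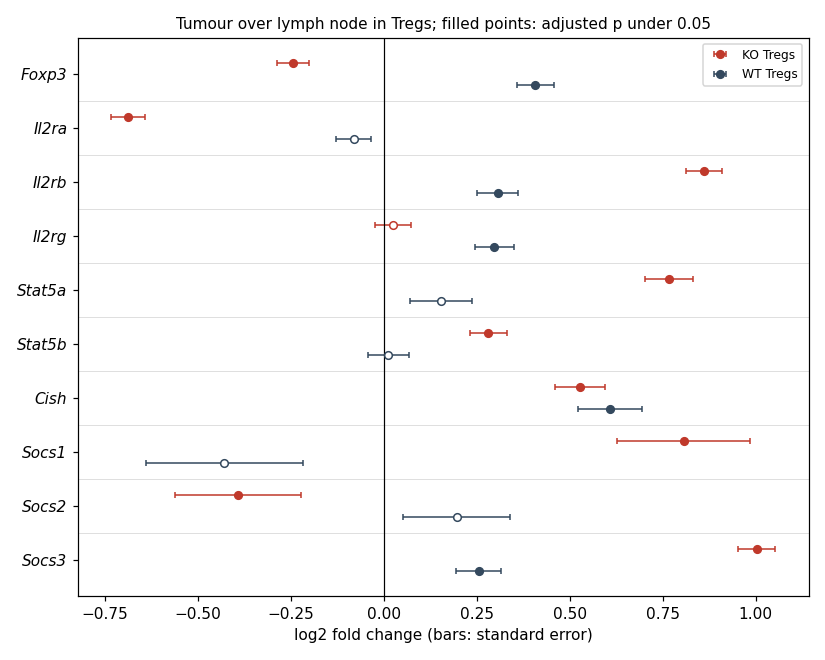
Log2 fold change of tumour over lymph node (bars: standard error) for the 10 genes in KO and WT Tregs; filled points passed an adjusted p of 0.05. Foxp3 lies at -0.24 in KO and 0.41 in WT Tregs and Cish at 0.53 and 0.61; under Cd4 scaling the WT values of Foxp3, Il2rb, Il2rg and Socs3 turn negative, and under CD3 scaling the KO value of Stat5b does.

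In tumour B cells, 6 of the 9 genes tested were called between KO and WT, where 40.1% of all genes tested were called. Socs2, with 6, 6 and 18 reads in KO and 4, 0 and 5 in WT, was too low to test. Il2rb had 10, 12.7 and 14.2 CPM in KO, against 1.49, 1.66 and 1.83 CPM in WT (2.87 ± 0.28, adjusted p = 2.43e-06). Socs3 had 132, 138 and 121 CPM in KO, against 62.7, 51.2 and 58.3 CPM in WT (1.17 ± 0.09, adjusted p = 3.55e-07). Il2rg had 226, 260 and 252 CPM in KO, against 176, 199 and 179 CPM in WT (0.41 ± 0.08, adjusted p = 0.00129). For these 3 genes every KO library lay above every WT library, and the share of all genes with such a gap was not counted.

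Cish and Socs1 were near the floor in WT tumour B cells. Cish gave 38, 60 and 54 reads in KO, against 8, 0 and 16 in WT (2.70 ± 0.60, adjusted p = 0.00257), and 3.60 without WT replicate 3. Socs1 gave 48, 20 and 20 reads in KO, against 4, 0 and 0 in WT (adjusted p = 0.000636), and its fitted value of 4.27 ± 0.79 rests on the 4 reads of WT replicate 1. Without that library no WT read remains, and the fitted value of 7.78 depends on the prior count. It was 3.66 without WT replicate 3, and 3.50 without KO replicate 1 and WT replicate 2. Even numbers made up 69.7 to 75.8% of the counts between 1 and 10 in each library, the pattern left when the mates of a fragment are each counted, so such counts may hold fewer fragments than they show. Stat5b was called lower (-0.28 ± 0.10, adjusted p = 0.0371), a call lost without KO replicate 2 or 3 or WT replicate 1 or 3, and with DESeq2 (adjusted p = 0.0548). Leaving out KO replicate 1 and WT replicate 2 together, the same 6 genes were called.

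T cell genes moved with these B cell libraries. Cd3e averaged 9.78 ± 1.62 CPM in KO and 1.05 ± 0.292 CPM in WT tumour B cells (SD, n = 3 each), and 9 of 10 T cell markers were higher, with sums of 518 to 551 CPM in KO and 261 to 270 CPM in WT. The CD8 T and NK sum was 54.1 to 60.9 CPM in KO and 3.76 to 6.23 CPM in WT, where Gzmk was at 0. In contrast, Foxp3 gave 83, 50 and 84 reads in KO, against 110, 82 and 68 in WT (-0.32 ± 0.26, adjusted p = 0.346), and Cd4 averaged 1.11 ± 0.806 CPM in KO and 1.13 ± 0.707 CPM in WT. Il2ra had 3.25, 5.55 and 5.27 CPM in KO, against 4.05, 1.51 and 2.25 CPM in WT (0.80 ± 0.40, adjusted p = 0.129), with groups that overlapped. Myeloid genes (9 genes) were lower, with sums of 79.4 to 93.5 CPM in KO and 253 to 262 CPM in WT. The part of T cell or myeloid RNA in the Il2rb, Il2rg, Socs3, Cish and Socs1 values was not tested.

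In lymph node B cells 3 of the 8 genes tested were called, against 21.1% of all genes tested. Socs3 had 62.1, 58.6 and 66.4 CPM in KO, against 82.4, 79.9 and 79.3 CPM in WT (-0.37 ± 0.07, adjusted p = 0.000207), the reverse of its direction in tumour B cells. Il2rg had 186, 169 and 178 CPM in KO, against 148, 164 and 145 CPM in WT (0.22 ± 0.06, adjusted p = 0.00725), and was not called without WT replicate 3 (adjusted p = 0.0674). Il2rb gave only 15, 12 and 18 reads in KO, against 27, 45 and 24 in WT (-1.14 ± 0.39, adjusted p = 0.0334), a call lost without KO replicate 1, KO replicate 2 or WT replicate 2. Of 10 T cell markers, 6 were called lower in these KO libraries, with Cd3e at 0.331 ± 0.0114 CPM in KO and 3.08 ± 0.542 CPM in WT, and 1, Cd2, was called higher, at 222 CPM in KO and 190 CPM in WT (0.22 ± 0.05). Their sums were alike, at 283 to 301 CPM in KO and 285 to 300 CPM in WT, while Cd4 averaged 0.829 ± 0.170 CPM in KO and 6.64 ± 1.53 CPM in WT; their part was not tested. Foxp3 had 8.17, 7.48 and 7.82 CPM in KO, against 9.52, 12.3 and 10.2 CPM in WT, and did not pass (-0.45 ± 0.17, adjusted p = 0.0582), but was called under upper-quartile scaling (-0.47, adjusted p = 0.0467) and with all 24 libraries in the fit (-0.45, adjusted p = 0.0212).

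The genotype by tissue interaction in B cells was called for 4 of 9 genes, with 20.9% of all genes tested called. It was 4.0 ± 0.44 for Il2rb, 1.53 ± 0.12 for Socs3, 4.06 ± 1.13 for Socs1 and -0.35 ± 0.12 for Stat5b (adjusted p = 0.0431). The Socs1 value rests on the same few WT reads, was 7.85 without tumour B cell WT replicate 1, and was not called without lymph node B cell WT replicate 2 (3.69, adjusted p = 0.0504). The Stat5b call was lost without tumour B cell KO replicate 2 or 3, tumour WT replicate 1 or 3, lymph node KO replicate 2 or 3, or lymph node WT replicate 1 or 3. Between tumour and lymph node in WT B cells, 2 of 7 genes were called, with 30.1% of all genes tested called. Il2rg was higher in the tumour, at 176, 199 and 179 CPM, against 148, 164 and 145 CPM in the lymph node (0.29 ± 0.07, adjusted p = 0.00280), and Socs3 was lower there, at 62.7, 51.2 and 58.3 CPM, against 82.4, 79.9 and 79.3 CPM in the lymph node (-0.47 ± 0.08, adjusted p = 0.000204). Myeloid genes (9 genes) summed to 253 to 262 CPM in WT tumour and 25.4 to 35.4 CPM in WT lymph node B cells. Melanoma genes summed to 738 to 847 CPM in the tumour and 15.8 to 20.4 CPM in the lymph node. Plasma cell genes summed to 871 to 1060 CPM in the tumour and 209 to 228 CPM in the lymph node, and B cell genes to 3890 to 4000 CPM in the tumour and 5210 to 5280 CPM in the lymph node. The part of these in the Il2rg and Socs3 values was not tested.

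The wider pathway was read from gene lists. Of 15 IL-2 signalling genes, 14 could be tested in tumour Tregs, of which 11 were higher and 1 lower in KO, with a median of 0.29. CD3 scaling lowers the median of all genes by about as much there, and the gene lists here and below were not run under it. The part of the higher CD8 T and NK RNA in these values was not tested. Over all genes tested, 27.3% were higher and 27.2% lower in that comparison, and 13.8% and 11.5% in lymph node Tregs. The gene that fell was Jak3, the kinase that binds the gamma chain, at 59.1 ± 4.83 CPM in KO and 100 ± 5.81 CPM in WT (-0.73 ± 0.07, adjusted p = 7.01e-11). Ptpn2, a phosphatase that acts on Jak and STAT proteins, rose by 0.66 ± 0.07, Cblb, a ubiquitin ligase that dampens receptor signals, by 0.54 ± 0.06, and Pik3cd, a catalytic PI3-kinase subunit, by 0.48 ± 0.06. In lymph node Tregs 4 of the 14 were higher and 1 lower (median 0.03), and Jak3 was again the lower gene (-0.43 ± 0.07, adjusted p = 3.91e-05). Il2 itself was at or near the floor in every group, at 0.236 ± 0.104 CPM in KO tumour Tregs and without a read in WT tumour Tregs.

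Receptors that share the gamma chain also differed. Il7r, the IL-7 receptor alpha chain that Tregs normally hold low, was lower in KO Tregs of both tissues, at 105 ± 1.60 CPM in KO and 287 ± 11 CPM in WT tumour Tregs (-1.41 ± 0.05) and at 74.5 ± 2.77 CPM in KO and 179 ± 2.41 CPM in WT lymph node Tregs (-1.27 ± 0.05). Il21r rose by 0.79 ± 0.05 and Il4ra by 0.67 ± 0.06 in KO tumour Tregs, and by 0.33 ± 0.05 and 0.32 ± 0.06 in KO lymph node Tregs. The 10 listed genes hold cytokine genes beside the receptors. Of these 10, 3 of 6 tested were higher and 2 lower in tumour Tregs, and 2 of 7 higher and 1 lower in lymph node Tregs. These shares are to be read beside the 54.5% and 25.2% of all genes called in those comparisons.

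Of 18 genes known to respond to STAT5 or to mark activated Tregs, 6 were higher and 8 lower in KO tumour Tregs (median -0.06), and 5 were higher and 7 lower in KO lymph node Tregs (median -0.06), against 27.3% higher and 27.2% lower of all genes in tumour Tregs and 13.8% and 11.5% in lymph node Tregs. The survival gene Mcl1 rose to 756 ± 34.5 CPM in KO tumour Tregs, against 359 ± 6.6 CPM in WT (1.11 ± 0.05), and the kinase gene Pim1 by 0.88 ± 0.05. Both were also called higher in KO B cells, Mcl1 by 0.84 in the tumour and 0.67 in the lymph node. Pim1 rose there by 1.75 and 0.86. Immediate early and heat shock genes were higher in all these KO groups too, and their part was not tested. Gzmb, the cytotoxic protease granzyme B, fell to 121 ± 6.33 CPM in KO tumour Tregs, against 306 ± 3.28 CPM in WT (-1.30 ± 0.05), in the same libraries in which CD8 T and NK markers were higher. Ccnd2, a D-type cyclin, had -0.76 ± 0.07. In lymph node Tregs Gzmb had -0.87 ± 0.07, Bcl2, a survival gene, -0.45 ± 0.06, Mcl1 0.40 ± 0.04 and Pim1 0.47 ± 0.06, and all 4 were called. Among 13 other STAT, Socs and Pias genes, 6 were higher and 3 lower in KO tumour Tregs, among them Stat3 (0.55 ± 0.05), Socs7 (0.90 ± 0.09) and Socs4 (-0.75 ± 0.08), while 0 were higher and 2 lower in KO lymph node Tregs, namely Socs4 (-0.64 ± 0.08) and Stat4 (-0.25 ± 0.07). Thus 9 of 13 were called in tumour Tregs, where 54.5% of all genes were, and 2 of 13 in lymph node Tregs, where 25.2% were.

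Of 23 genes known to regulate Foxp3 transcription or protein, 12 were higher and 6 lower in KO tumour Tregs (median 0.25), where 27.3% of all genes were higher and 27.2% lower. Nr4a3 and Nr4a1, nuclear receptors induced by T cell receptor signals, rose by 2.01 ± 0.05 and 1.56 ± 0.05, and Rel, the NF-kB subunit c-Rel that acts on Foxp3 in the thymus, by 1.54 ± 0.06. Kmt2d, a histone H3 lysine methyltransferase, had -1.17 ± 0.05. The same 3 inducible genes were higher in KO lymph node Tregs, where Foxp3 was not called: Nr4a3 by 1.65 ± 0.05, Rel by 1.43 ± 0.05 and Nr4a1 by 1.35 ± 0.05, with 9 of the 23 genes higher and 3 lower (median 0.09; 13.8% and 11.5% of all genes). They were also higher in KO B cells, by 3.57 ± 0.11, 2.04 ± 0.07 and 2.17 ± 0.07 in the tumour and by 2.46 ± 0.09, 1.1 ± 0.05 and 1.24 ± 0.05 in the lymph node, in the order Nr4a3, Rel, Nr4a1. All 4 comparisons had higher immediate early and heat shock genes in KO as well, and the part of that in these values was not tested. Between tumour and lymph node in WT Tregs, 4 of the 23 were higher and 15 lower (median -0.25; 21.4% and 19.9% of all genes), led by Satb1 (-1.04 ± 0.06), Bach2 (-2.22 ± 0.15), Ikzf1 (-0.62 ± 0.05) and Foxo1 (-0.94 ± 0.10).

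Likeness to Foxp3 and Il2ra was measured over the 12 Treg libraries as the root mean square difference of log2(CPM + 1) after each gene was centred, among 9927 genes of at least 5 CPM. The genes nearest to Foxp3 were Celf2, Adcy7, Coro7, Gbp4 and Mta3, with differences of 0.049 to 0.074, against a standard deviation of 0.262 for Foxp3 itself. Adcy7 averaged 71.6 CPM in KO and 123 CPM in WT tumour Tregs, and 86.0 CPM in KO and 90.4 CPM in WT lymph node Tregs. The genes nearest to Il2ra were Ccnd2, Ccdc47, Wrn, Cd99l2 and Cbx1, with differences of 0.069 to 0.078. Ccnd2 averaged 71.2 CPM in KO and 123 CPM in WT tumour Tregs, and 122 CPM in KO and 137 CPM in WT lymph node Tregs. The 12 libraries share the depth and composition effects given above, so likeness is a description only.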

How the data were processed

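The deposited file is a table of raw read counts for each gene in 24 libraries, made by the authors with no normalization, beside gene coordinates and exon lengths in bases. The submitters' processing notes name fastp 0.23.4, STAR 2.5.3a and featureCounts as tools, and GRCh38 and GRCm39 as builds; coordinates of the table are printed as GRCm39. Not given in the sources used here are the annotation release, whether counting used strand, and how reads with several alignments were treated. Groups and replicates were taken from the labels and the column names, and 0 columns belonged to other samples. Depth was 6245822 to 16239055 counts per library, with 18025 to 21217 genes read.

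Comparisons were fitted with edgeR 4.0.16 in R 4.3.3 on the libraries concerned (TMM, the package's filter on low counts, quasi-likelihood F test, two-sided, Benjamini-Hochberg over all genes tested, called at 0.05). Interactions used the 12 libraries of a cell type. CPM and RPKM were computed from the counts. Alternatives were DESeq2 1.42.0, its size factors, upper-quartile scaling, no filter, a replicate block, all 24 libraries in the fit, scaling by Cd3d, Cd3e, Cd3g and Cd247, and leaving out each library. Scaling by Cd4 was chosen after seeing the data. The code was tested on simulated data. The chi-square per gene between replicates was 2.43 to 11.5. Counting each mate of a fragment, the pattern of the even counts given above, raises this value. How far replicates differed beyond counting error was therefore not determined.

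The 10 genes and the gene lists were chosen with earlier results of these data known. Genes named are the 10, Appl2, the genes that overlap Foxp3, up to 4 genes of a list with the smallest p in a comparison (1 such gene is not reported here), and the 5 genes most like Foxp3 or Il2ra. Promoter windows are from RefSeq, GRCm38.p6. No protein sequences were used here.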

Additional observations from a re-analysis of the deposited data

Results flagged for a closer look

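The difference between KO and WT libraries was compared between tumour and lymph node by a test of the interaction. Appl2 was not called lower in lymph node Tregs labelled KO, at 26.1 CPM in KO and 22.3 CPM in WT. It was called lower in KO B cells, in which deletion is not aimed for. Its levels there were 15.8 CPM in KO and 45.7 CPM in WT tumour B cells, and 11.2 and 23.6 CPM in lymph node B cells. The CD8 T and NK sum was 284 CPM in KO and 44.5 CPM in WT tumour Tregs, and 28.6 and 17.6 CPM in lymph node Tregs. Melanoma genes summed to 52.5 and 2790 CPM in tumour Tregs, and to 36.8 and 50.4 CPM in lymph node Tregs. The part of these in the values below was not tested. In Tregs the interaction was called for 9 of the 10 genes, against 34.1% of all genes tested. Its values (log2, tumour difference minus lymph node difference) were -0.64 for Foxp3, -0.60 for Il2ra, 0.56 for Il2rb, -0.27 for Il2rg, 0.62 for Stat5a, 0.28 for Stat5b, -0.58 for Socs2, 1.24 for Socs1 and 0.75 for Socs3. Under CD3 scaling Il2rb and Stat5a were not called and Stat5b turned to -0.23. Under Cd4 scaling Il2rg turned to 0.02. The Socs2 call was lost in 11 of 20 alternative runs. In B cells the interaction was called for 4 genes, against 20.9% of all genes tested. Its values were 4.0 for Il2rb, -0.35 for Stat5b, 4.06 for Socs1 and 1.53 for Socs3. The Socs1 value rests on few WT reads, and the Stat5b call was lost in 10 of 19 alternative runs. No group had 4 or more samples, so single libraries were not tested for standing apart.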

How the results depend on the processing

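Of 1468 values of single genes under the alternatives, 1379 stayed on their side of the threshold (22 of these, called in neither fit, had the opposite sign, 6 under CD3 or Cd4 scaling and 16 under other alternatives), 52 lost a call, 17 gained one and 20 that were called in at least 1 of the fits changed sign, all 20 under scaling by the CD3 genes or by Cd4; the cause was not tested. In KO over WT tumour Tregs, Stat5b was -0.0513 (CD3) and Il2rg 0.29 (Cd4). In KO over WT lymph node Tregs under CD3 scaling, Foxp3 was 0.142, Il2ra 0.0598, Il2rb 0.0413 and Stat5b 0.179, and under Cd4 scaling Il2ra was 0.0417, Il2rb 0.0238 and Stat5b 0.16. In WT Tregs, tumour over lymph node, Cd4 scaling gave Foxp3 -0.0732, Il2rb -0.17, Il2rg -0.18, Stat5a -0.32, Stat5b -0.47 and Socs3 -0.22. In KO Tregs, tumour over lymph node, Il2rg was -0.34 and Stat5b -0.0904 (CD3), and Il2rg -0.17 (Cd4). In the Treg interaction Stat5b was -0.23 (CD3) and Il2rg 0.0169 (Cd4). These scalings moved the calls over all genes: CD3 scaling gave 2144 higher and 6601 lower in KO tumour Tregs, 4643 and 580 in KO lymph node Tregs, 4186 and 1819 in the WT and 1901 and 7178 in the KO tissue comparison, and 577 and 7177 in the interaction, and Cd4 scaling gave 7613 and 1561, 4285 and 614, 1245 and 8282 (9527 calls against 5993), 2832 and 5629, and 4749 and 1296 in the same order. Upper-quartile scaling shifted the median of all genes by -0.11 in tumour B cells. With all 24 libraries in the fit, 2 genes were called in lymph node Tregs (4 in the 6 libraries alone) and 5 between the tissues in WT B cells (2). Leaving out single libraries gave 2 to 4 calls in lymph node Tregs, with 2 without KO replicate 1. Same-numbered libraries had correlations of -0.033 to 0.029 in their deviations over 21 pairs of KO with WT or tumour with lymph node libraries. Tregs and B cells of the same number were not compared, so these values cannot tell whether replicate numbers mark shared mice. With the replicate block, Il2rb in lymph node B cells was -1.11 (adjusted p = 0.0538) and Stat5b in the B cell interaction -0.35 (adjusted p = 0.0575). No other call changed with that block. Group levels were 0.986 to 1.01 times those reported with DESeq2 size factors, and 0.876 to 1.05 times with total counts, where 19 of 80 moved by over 1 SD. Depth limits Cish, Socs1, Socs2 and Il2rb in B cells to few reads.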
